A study of Mus musculus with 4 samples.

Results

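The acyl-CoA thioesterase genes described here are Acot1, Acot2, Acot3, Acot4, Acot7, Acot8, Acot9, Acot11, Acot12 and Acot13, 10 of the 46603 genes listed in the deposited table, found there by gene symbol. Acot5, Acot6 and Acot10 are not among the 10 and are given with other thioesterases. Of these, 9 had a mean of at least 10 reads per library and entered the comparisons, and Acot12 did not. The data are messenger RNA libraries of the ventricles of C57Bl6/J mice, 8 to 12 weeks of age, with 1 library in each of 4 groups. The groups were wild type (WT) mice given saline, WT mice given isoproterenol, P2Y6-null (P2Y6 KO, here KO) mice given saline and KO mice given isoproterenol. Isoproterenol, which activates beta-adrenergic receptors and is a common means to induce hypertrophy of the heart, was injected into the peritoneum at 50 mg/kg/day for 7 days, and the saline mice were injected daily over the same time. P2Y6 is a receptor for the nucleotide UDP. The labels call the KO mice P2Y6-null and name no cell type for the deletion, and whether a library holds 1 heart or a pool of hearts is not stated.

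Acyl-CoA thioesterases cut the bond between a fatty acid and coenzyme A (CoA), which returns a free fatty acid and free CoA. They work against the acyl-CoA synthetases, which join the pair before the fatty acid is oxidised, stored or built into lipids. The heart draws most of its energy from fatty acid oxidation, and several of these enzymes are known targets of PPAR-alpha, the nuclear receptor that governs the genes of fatty acid oxidation in cardiomyocytes. The type I enzymes, Acot1 to Acot4 in this set, share an alpha/beta hydrolase fold and differ by compartment. Acot1 is cytosolic, Acot2 mitochondrial, and Acot3 and Acot4 peroxisomal. The other members are type II enzymes with a hotdog fold.

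No comparison has a replicate check, since each group is 1 library. Each fold below is a ratio of reads between 2 libraries after TMM scaling, a scaling that sets the bulk of genes level, and the range in parentheses is a 95% counting interval. It covers counting error only, so it compares libraries and not conditions. A gene is called higher or lower where its whole interval lies beyond 1.5-fold. The libraries held 18771198 to 25637369 reads in the listed genes, of which 22.5% to 28.9% came from the mitochondrial genome. The KO labels held at the targeted gene. P2ry6 stood at 5.11 CPM in WT saline and 5.89 CPM in WT isoproterenol, against 0.566 CPM in KO saline and 0.533 CPM in KO isoproterenol. CPM stands for a gene's reads per 1000000 reads in that library. Markers of cardiomyocytes were abundant in every library, at 66512 to 88744 CPM summed over 10 genes, whereas hepatocyte markers summed to at most 7.87 CPM. Atrial markers, 7 genes, summed to 301 CPM in WT saline, 308 in WT isoproterenol, 215 in KO saline and 967 in KO isoproterenol. With isoproterenol 2 of them were called higher in WT and 4 in KO. In WT 5 of the 7 ratios lay below 1 (median log2 ratio -0.19), and in KO 0 did (median 0.75). Nppa, called higher in both genotypes, stood at 68.5, 123, 65.3 and 700 CPM in the same order of libraries. It thus made up most of the 967 CPM in KO isoproterenol. Whether these values follow atrial tissue was not tested. Of the 7 markers, 2 were called lower in KO saline than in WT saline.

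The type I genes lie side by side on the plus strand of chromosome 12 (GRCm38). Acot2 (ENSMUSG00000021226) spans 83987861 to 83993873, Acot1 (ENSMUSG00000072949) 84009490 to 84018371, Acot4 (ENSMUSG00000052392) 84038379 to 84048601 and Acot3 (ENSMUSG00000021228) 84052144 to 84060402. Acot1 and Acot2 are near copies, which bears on how reads divide between them. Their coding sequences match at 1178 of 1236 aligned bases (95.3%), against 85% for Acot1 with Acot3 and 76.5% for Acot1 with Acot4. The stretch of 120 coding bases with the most differences shows where a read can tell the 2 genes apart. It is given 5′ to 3′ from the GENCODE M21 transcripts, as coding bases 767 to 886 of Acot1 and 890 to 1009 of Acot2, with the 14 mismatched bases in capitals.
Acot1: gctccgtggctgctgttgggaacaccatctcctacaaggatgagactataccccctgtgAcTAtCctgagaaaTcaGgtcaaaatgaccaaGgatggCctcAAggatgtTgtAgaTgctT
Acot2: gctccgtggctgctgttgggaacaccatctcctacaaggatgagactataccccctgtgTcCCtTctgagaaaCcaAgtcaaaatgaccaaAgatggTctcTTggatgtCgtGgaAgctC
Directly after this stretch the 2 coding sequences are identical over 273 bases. Of all 50-base windows of the main Acot1 transcript, 33.6% occur in a transcript of another gene, 527 of them in Acot2. The share was 27.7% for Acot2, 19.5% for Acot3 and 4.87% for Acot4. A read from such a window fits both genes, and how the counting treated it is not given in the sources used here, so levels of these 4 genes are uncertain to that extent. Acot3 and Acot4 also share their strand with the longer gene model Gm49366, which spans part of both.

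The regions before the start sites of Acot1 and Acot2 are far less alike than their coding sequences, and they are shown because the 2 genes differ in their values below. The 250 bases before each start (RefSeq, GRCm38.p6, plus strand) run from chr12:84009252-84009501 for Acot1 and from chr12:83987611-83987860 for Acot2, and capitals mark the longest run of bases common to both, which is 9 bases long.
Acot1: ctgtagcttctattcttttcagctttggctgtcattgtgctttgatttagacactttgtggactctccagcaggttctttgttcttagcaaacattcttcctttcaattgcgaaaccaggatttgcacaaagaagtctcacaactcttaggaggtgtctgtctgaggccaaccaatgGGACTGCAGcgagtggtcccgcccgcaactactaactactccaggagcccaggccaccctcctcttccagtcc
Acot2: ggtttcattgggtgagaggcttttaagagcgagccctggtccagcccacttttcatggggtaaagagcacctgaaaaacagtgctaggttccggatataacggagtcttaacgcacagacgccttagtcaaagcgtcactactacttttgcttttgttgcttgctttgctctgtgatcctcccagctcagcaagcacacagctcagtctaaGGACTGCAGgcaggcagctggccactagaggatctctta
PPAR acts as a dimer with RXR on direct repeats of the hexamer AGGTCA. In windows from 250 bases before to 50 bases after the start, searched on both strands, the hexamer was found at 1 place each for Acot3, Acot4 and Acot12, and not for Acot1, Acot2, Acot7, Acot8, Acot9 or Acot11. Of 32851 such windows in the RefSeq table, 16.3% hold it. The repeat itself, 2 such hexamers in the same direction with 1 base between them, was in none of the members' windows and in 13 of all windows (0.0396%). A match of letters is a description and not a binding site. Acot13 had no entry among the windows.

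The other members are scattered over the genome. Acot9 (ENSMUSG00000025287) lies on chromosome X, 155262443 to 155297654, plus strand, and encodes a mitochondrial enzyme. Of its 50-base windows 20.2% also occur in Acot10, a near copy, which held at most 0.078 CPM in these libraries. Acot13 (ENSMUSG00000006717), on chromosome 13, 24817948 to 24831540, minus strand, encodes a small enzyme associated with mitochondria, also known as Them2. Acot7 (ENSMUSG00000028937), on chromosome 4, 152178134 to 152271855, plus strand, encodes a mainly cytosolic enzyme best known from brain. Acot11 (ENSMUSG00000034853), on chromosome 4, 106744555 to 106804998, minus strand, encodes the enzyme known as Them1 in brown fat. Acot8 (ENSMUSG00000017307), on chromosome 2, 164792765 to 164804882, minus strand, encodes a peroxisomal enzyme of broad specificity. Acot12 (ENSMUSG00000021620), on chromosome 13, 91741512 to 91786148, plus strand, encodes a cytosolic acetyl-CoA hydrolase known from liver. No 50-base window of Acot7, Acot8, Acot11, Acot12 or Acot13 occurred in another gene. Acot8 overlaps Snx21 on the opposite strand, and Acot11 overlaps Fam151a and Gm12745. Acot7 overlaps Gm13096 on its own strand and Gm27500 on the other, and Acot12 overlaps Gm27656 on its own strand and 4833422C13Rik and Gm24597 on the other. Acot3 and Acot4 overlap 4732463B04Rik on the opposite strand. Whether the counting used strand is not given in the sources used here.

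Acot13 was the most abundant thioesterase message in every library. Its level was 199 CPM in WT saline, 167 CPM in WT isoproterenol, 190 CPM in KO saline and 163 CPM in KO isoproterenol. Divided by the length of the merged exons, so that genes can be compared, Acot13 stood at 219 to 267 CPM per kb and took 76.3% to 78.4% of the summed level of the 10 genes. In WT saline Acot7 followed at 27.6 CPM per kb and Acot2 at 26.6 CPM per kb, and these 2 levels overlapped in their counting intervals. Acot9 came next at 9.46 CPM per kb. Acot1 at 3.66 CPM per kb and Acot11 at 3.27 CPM per kb overlapped each other, ahead of Acot8 at 2.4 CPM per kb. The peroxisomal type I genes were scarce, with Acot3 at 0.454 and Acot4 at 0.0818 CPM per kb. Acot12 was represented by 1 to 3 reads per library, at or under the floor of 3 reads, so no fold is given for it.

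The order changed between the libraries. In WT isoproterenol Acot1 was in seventh place, with 0.394 CPM per kb, behind Acot11 and Acot8. In KO isoproterenol Acot9 (23.3 CPM per kb) stood directly under Acot13 and overlapped Acot7 (22.3 CPM per kb), whereas Acot2 (9.73 CPM per kb) was below both. Summed over the 10 genes, the level was 379 CPM in WT saline, 327 CPM in WT isoproterenol, 382 CPM in KO saline and 312 CPM in KO isoproterenol. The 4 type I genes together held 75, 40, 82.2 and 24 CPM in the same order of libraries.

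**Figure D1:**
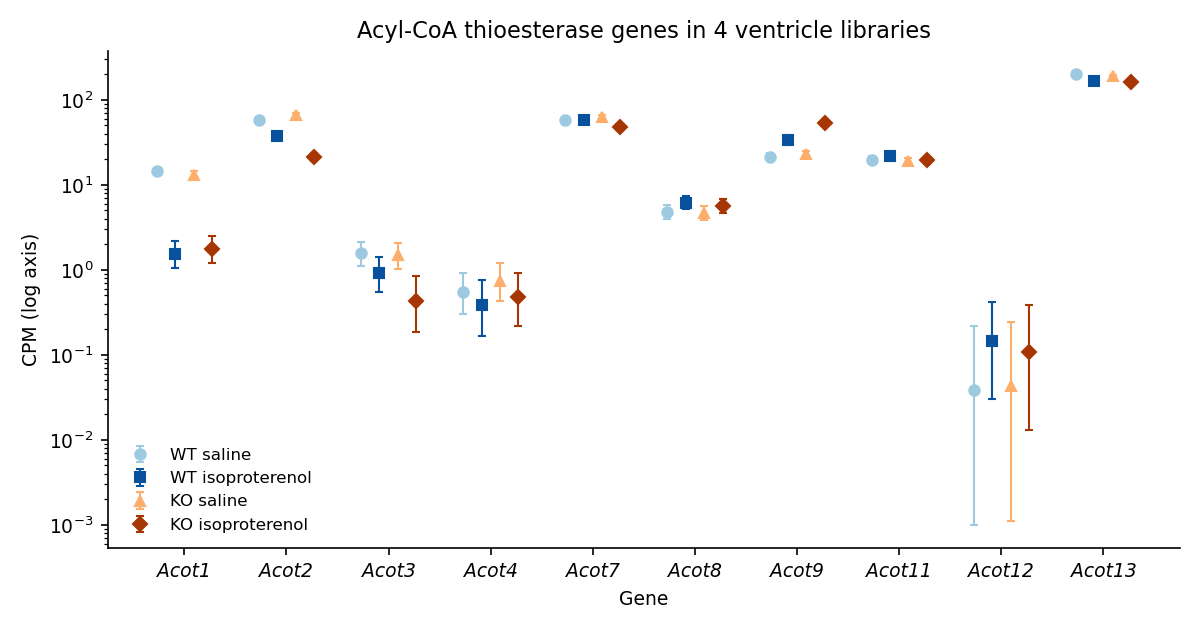
Level of each acyl-CoA thioesterase gene in the 4 ventricle libraries, in CPM on a log axis, with bars for the 95% counting interval. Acot13 lies between 163 and 199 CPM in all libraries, and Acot1 lies at 1.54 and 1.76 CPM in the isoproterenol libraries against 14.4 and 13.1 CPM in the saline libraries.

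The isoproterenol comparison asked how the ventricles of each genotype respond to 7 days of beta-adrenergic stimulation. Acot1, the cytosolic long-chain enzyme and a known PPAR-alpha target, was lower in the isoproterenol library of both genotypes by nearly the same fold. It stood at 14.4 CPM (368 reads) in WT saline, 1.54 CPM (32 reads) in WT isoproterenol, 13.1 CPM (301 reads) in KO saline and 1.76 CPM (33 reads) in KO isoproterenol. Both isoproterenol libraries lay far under both saline libraries. The fold was 8.67-fold lower (6.12 to 13) in WT and 8.35-fold lower (5.89 to 12.5) in KO. The difference of the 2 responses was 0.06 on the log2 scale (-0.67 to 0.79), an interval that leaves room for a difference of up to 1.72-fold.

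Acot2, the mitochondrial type I enzyme, was lower with isoproterenol mainly in the KO pair. It stood at 58.5 CPM in WT saline, 37.2 CPM in WT isoproterenol, 66.9 CPM in KO saline and 21.4 CPM in KO isoproterenol. The isoproterenol libraries were again the 2 lowest, and the KO isoproterenol library was lowest of all. The fold was 1.49-fold lower (1.36 to 1.63) in WT, which was not called, and 3.55-fold lower (3.18 to 3.98) in KO, which was. The difference of the responses was -1.25 on the log2 scale (-1.45 to -1.05), that is 2.38-fold (2.07 to 2.74), and it was called.

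Acot9, the mitochondrial type II enzyme, went the other way. It stood at 21.5 CPM in WT saline, 33.3 CPM in WT isoproterenol, 23 CPM in KO saline and 52.9 CPM in KO isoproterenol. Both isoproterenol libraries were above both saline libraries. The fold was 1.64-fold higher (1.46 to 1.84) in WT, just short of a call, and 2.03-fold higher (1.82 to 2.26) in KO, which was called. The difference of the responses was 0.31 on the log2 scale (0.08 to 0.53) and was not called.

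Acot3, a peroxisomal type I enzyme, rested on few reads, with 40 in WT saline, 19 in WT isoproterenol, 34 in KO saline and 8 in KO isoproterenol. It was called lower in KO, by 3.76-fold (1.79 to 9.86), and not in WT, where it was 1.59-fold lower (0.911 to 2.94). The difference of those responses was -1.24 on the log2 scale (-2.58 to 0.09), so the 2 responses did not differ beyond counting error. Acot4, also peroxisomal, had 8 to 17 reads in each library and no ratio beyond counting error.

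The abundant Acot13 was 1.13-fold lower (1.08 to 1.18) with isoproterenol in WT and 1.33-fold lower (1.27 to 1.39) in KO. Acot7 stood at 58.6, 58.3, 62.6 and 47.5 CPM in WT saline, WT isoproterenol, KO saline and KO isoproterenol. Its KO isoproterenol library was the low one, 1.5-fold lower (1.37 to 1.63) than KO saline, while the WT pair gave 1.05-fold higher (0.973 to 1.13), a sign that turned with total-count scaling (log2 ratio -0.01). Acot11 ranged from 19 to 22 CPM and Acot8 from 4.7 to 6.18 CPM. Acot8 was 1.36-fold higher (1.05 to 1.76) with isoproterenol in WT and 1.07-fold higher (0.81 to 1.41) in KO. None of these 4 genes was called in either genotype or in the difference of the responses. On the log2 scale that difference was beyond counting error for Acot7, at -0.65 (-0.81 to -0.49). It was so too for Acot11, at -0.38 (-0.66 to -0.11), and for Acot13, at -0.23 (-0.32 to -0.14). For Acot8 it was not, at -0.35 (-0.87 to 0.18).

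In the WT pair 0 of 9 members were called higher and 1 lower, against 0.86% higher and 0.797% lower (1.66% in either direction) of the 14301 genes tested. In the KO pair 1 of 9 was called higher and 3 lower, against 7.09% higher and 4.22% lower (11.3% in either direction) of all genes. The median log2 ratio of the members was -0.18 in WT and -0.58 in KO, beside 0.00 for all genes in both. In the difference of the responses 0 members were called higher and 1 lower, with 3.83% higher and 1.73% lower (5.57% in either direction) among all genes. Scaling by total counts moves the median of all genes by -0.08 in WT, 0.18 in KO and 0.26 in their difference, and it changed no call of a member. Under it the KO ratio of Acot11 (log2 ratio -0.15) became 0.03 and the difference of responses of Acot13 (-0.23) became 0.03.

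**Figure D2:**
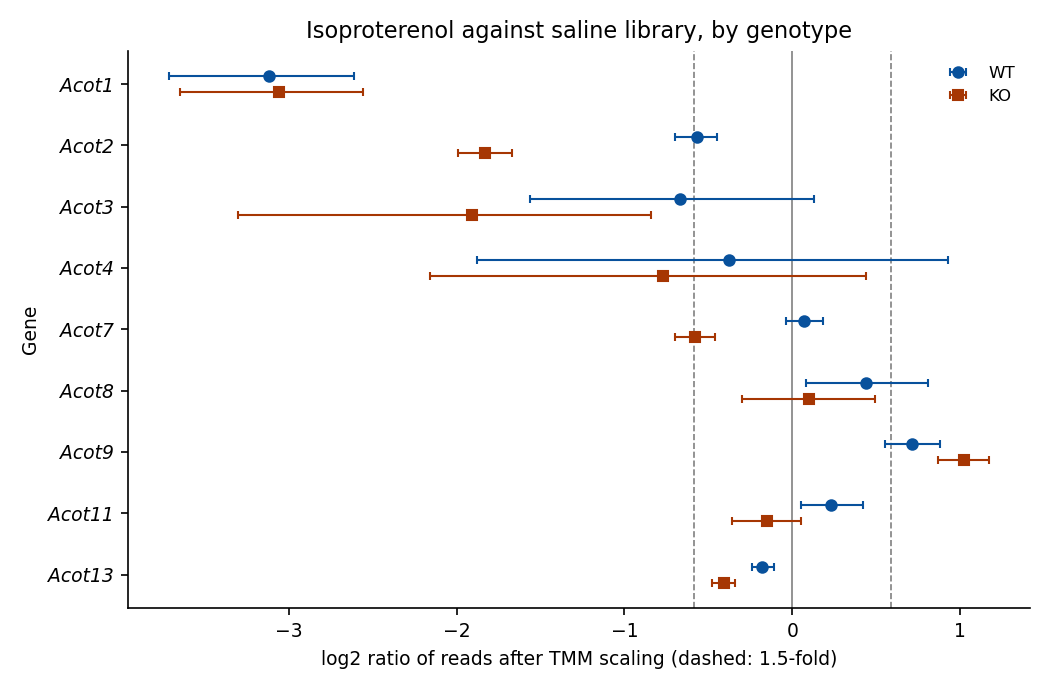
Log2 ratio of reads, isoproterenol against saline, for the 9 tested thioesterase genes in WT and KO, after TMM scaling, with 95% counting intervals. Acot1 has overlapping intervals in the 2 genotypes, 8.67-fold lower in WT and 8.35-fold lower in KO, while the intervals of Acot2 are apart.

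Counts of 2 genes within the same library need no scaling between libraries. For each 100 Acot2 reads there were 24.5 Acot1 reads (21.8 to 27.5) in WT saline and 19.6 (17.3 to 22.2) in KO saline. With isoproterenol there were 4.16 (2.82 to 5.92) in WT and 8.23 (5.59 to 11.7) in KO. The cytosolic gene was thus lower by a larger factor than its mitochondrial near copy in both genotypes. The count of Acot9 reads per 100 Acot2 reads was 36.7 (33.3 to 40.5) in WT saline, 89.7 (80.9 to 99.6) in WT isoproterenol, 34.4 (31.1 to 38) in KO saline and 248 (220 to 279) in KO isoproterenol. Of the 2 mitochondrial enzymes, Acot2 had more reads in 3 libraries and Acot9 had more in KO isoproterenol. Acot3 had 2.67, 2.47, 2.21 and 2 reads per 100 Acot2 reads, with overlapping intervals.

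**Figure D3:**
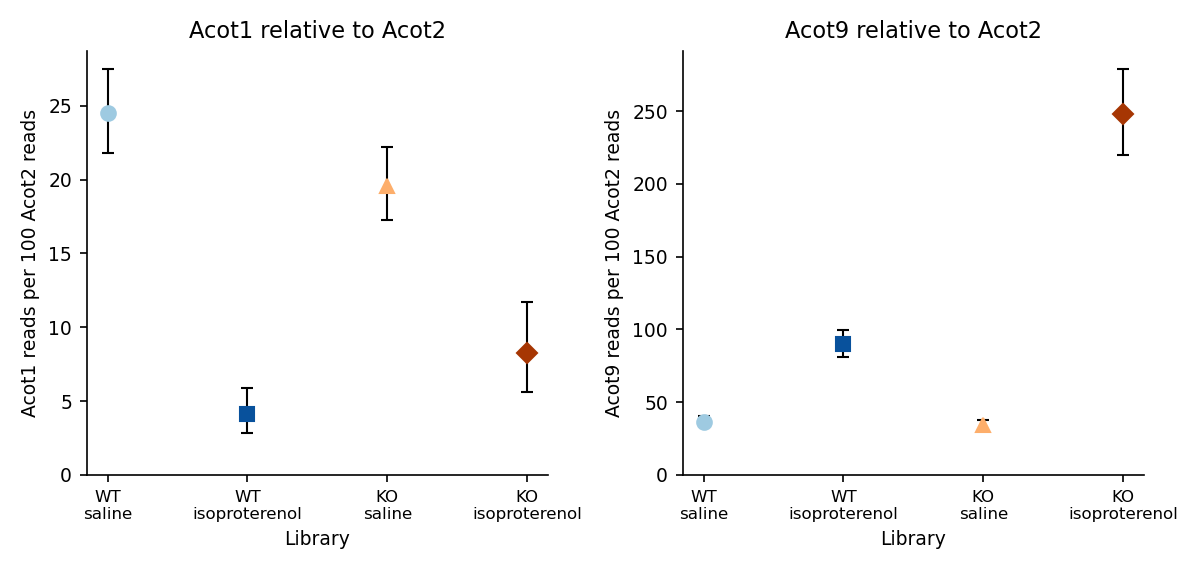
Reads of Acot1 and of Acot9 per 100 reads of Acot2 within each library, with 95% counting intervals and axes that start at 0. Acot1 stands at 24.5 and 19.6 in the saline libraries and at 4.16 and 8.23 in the isoproterenol libraries, and Acot9 reaches 248 in KO isoproterenol.

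Markers of some cell types moved with the isoproterenol ratios, above all in KO, where 7.09% of all genes were called higher and 4.22% lower. The 10 cardiomyocyte markers summed to 88744 CPM in WT saline, 78882 CPM in WT isoproterenol, 87681 CPM in KO saline and 66512 CPM in KO isoproterenol, and 5 of 10 were called lower in the KO pair. The 10 fibroblast markers summed to 3373, 4735, 2821 and 11902 CPM, with 7 called higher and 1 lower in KO. The 10 macrophage markers summed to 453, 434, 403 and 996 CPM, with 7 called higher in KO. The 10 endothelial markers summed to 1659, 1561, 1603 and 1552 CPM, with 0 called in either genotype. The 8 smooth muscle and pericyte markers summed to 1262, 1232, 1125 and 1328 CPM, with 2 called higher in KO. In whole ventricle, fewer cells of a type and less RNA per cell cannot be told apart, and the part of these shifts in the thioesterase ratios was not tested. Adipocyte markers, 8 genes, summed to 17.4, 24.6, 7.79 and 9.7 CPM. Of the 6 tested, Plin1 and Ucp1 were called higher in the WT pair, 0 were called in the KO pair, and 4 were called lower in KO against WT under isoproterenol. Between the saline libraries Pck1 and Cidec were called lower in KO, and the median log2 ratio of the 6 was -1.33. Ucp1, the marker of brown fat, where Acot11 is best known, stood at 0.39, 4.73, 0.0435 and 0.426 CPM. Acot11 was 1.18-fold higher (1.03 to 1.34) in the WT pair and 1.11-fold lower (0.964 to 1.28) in the KO pair, and the part of adipocyte RNA in its values was not tested.

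With each library set to the same summed reads of the 10 cardiomyocyte markers, a scaling chosen after the data were seen, Acot1 was still called lower, by 8.15-fold (5.75 to 12.3) in WT and 5.58-fold (3.94 to 8.37) in KO. Acot2 was 2.37-fold lower (2.13 to 2.66) in KO and remained called there. Its difference of responses became -0.76 on the log2 scale and was no longer called. Acot9 was called higher in both genotypes, by 1.75-fold (1.56 to 1.96) in WT and 3.03-fold (2.73 to 3.38) in KO. The KO call of Acot3 was lost, at 2.52-fold lower (1.2 to 6.59). Acot7 came to a KO ratio of 1 (0.919 to 1.09), and Acot13 turned to 1.13-fold higher (1.08 to 1.18). Acot11 turned to 1.35-fold higher (1.17 to 1.55) in KO, and Acot8 was 1.6-fold higher (1.21 to 2.11), neither of them called. The differences of responses of Acot7 (1.12-fold lower, 0.999 to 1.25) and Acot11 (1.08-fold higher, 0.892 to 1.3) were then within counting error. That of Acot13 turned to 1.19-fold higher (1.12 to 1.27). The 10 markers did not move together. From KO saline to KO isoproterenol Myh6 went from 29949 to 22219 CPM and Atp2a2 from 13804 to 5494 CPM. Tnnt2 went from 7434 to 7505 CPM, Ttn from 4220 to 4295 CPM and Actc1 from 9345 to 11725 CPM. The summed scale thus depends on its most abundant genes, and whether it follows cardiomyocyte content was not tested.

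The genotype comparison asked whether lack of P2Y6 goes with other levels of these genes under each treatment. In saline, 0 of 9 members were called in either direction, where 0.273% of all genes were higher and 0.217% lower (0.489% in either direction). The largest ratio beyond counting error was that of Acot2, 1.18-fold higher (1.1 to 1.27) in KO, followed by Acot7 at 1.1-fold higher (1.03 to 1.19). Acot1 was 1.06-fold lower (0.906 to 1.24) and Acot13 1.01-fold lower (0.97 to 1.05), within counting error. The median log2 ratio of the members was 0.02.

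In isoproterenol, 1 of 9 members was called lower and 0 higher, where 1.8% of all genes were lower and 4.2% higher (6% in either direction). That member was Acot2, 2.01-fold lower (1.78 to 2.28) in KO. With the cardiomyocyte scaling it was 1.47-fold lower (1.3 to 1.66) and not called, while Acot9 was called at 1.88-fold higher (1.71 to 2.08). Under TMM scaling Acot9 was 1.37-fold higher (1.24 to 1.51), Acot7 1.42-fold lower (1.3 to 1.55), Acot11 1.31-fold lower (1.14 to 1.51) and Acot13 1.19-fold lower (1.13 to 1.25), each beyond counting error but not called. Acot3, with 19 reads in WT and 8 in KO, was 2.41-fold lower (1.04 to 6.58) and likewise not called. With the cardiomyocyte scaling Acot13 turned to 1.16-fold higher (1.1 to 1.22). Under that scaling Acot7 (1.04-fold lower, 0.949 to 1.13), Acot11 (1.05-fold higher, 0.911 to 1.21) and Acot3 (1.75-fold lower, 0.758 to 4.79) did not differ beyond counting error. Acot1 did not differ beyond counting error between the treated libraries, at 1.02-fold lower (0.606 to 1.71), a sign that turned with total-count scaling (log2 ratio 0.19). These 2 comparisons use the same libraries as the isoproterenol ratios and are not separate evidence.

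**Figure D4:**
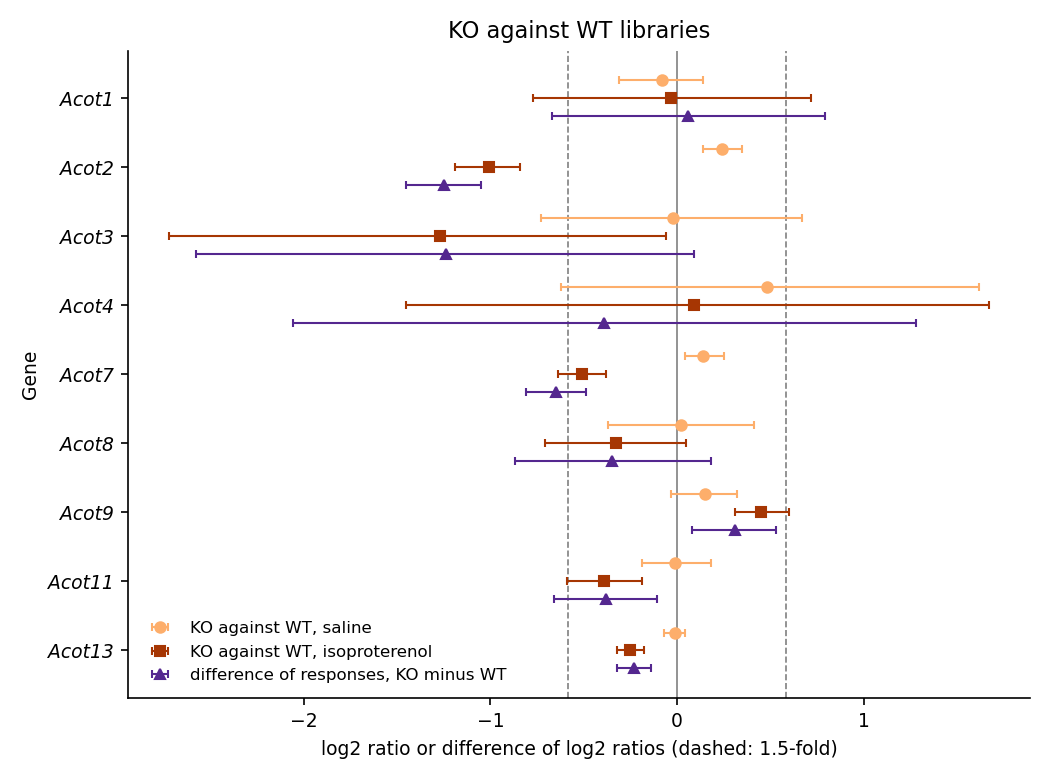
Log2 ratio of reads, KO against WT, for the 9 tested thioesterase genes in the saline pair and in the isoproterenol pair, after TMM scaling, with 95% counting intervals. Acot2 is 1.18-fold higher in KO under saline and 2.01-fold lower in KO under isoproterenol.

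A test over libraries was possible only for effects shared by both genotypes or both treatments. An additive limma fit of genotype and treatment on log2(CPM + 1) after TMM scaling leaves 1 residual degree of freedom per gene. That residual is the difference of the responses between the genotypes. The SE and p-values rest on that difference after limma draws each gene's variance toward a trend fitted over all tested genes. They do not measure the spread between hearts. The fit called 1 gene lower and 0 higher with isoproterenol, which is 0.00699% of all genes. That gene was the desaturase Scd4. At an unadjusted p under 0.05 there were 2011 genes, and 22 were called by edgeR's quasi-likelihood test on the reads recovered from CPM. The Acot1 difference was -2.51 (SE 0.17), with a limma adjusted p of 0.0518, just short of the threshold of 0.05. Its adjusted p in the other settings was 0.000546 with no filter on low reads, 0.00704 with edgeR, 0.0176 with a pseudocount of 0.25 and 1.69e-05 on CPM as deposited. Acot2 differed by -1.17 (SE 0.28, limma adjusted p = 0.252) and Acot9 by 0.84 (SE 0.14, limma adjusted p = 0.215). Both passed on CPM as deposited, with limma adjusted p-values of 0.00455 and 0.0176, and without the filter on low reads, at 0.0219 and 0.0121. Both missed it with edgeR, at adjusted p-values of 0.154 and 0.0954. By genotype limma called 0 genes of 14301, with 412 at an unadjusted p under 0.05, and edgeR called 3, none of them a member.

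Among genes that are no members, those with the pattern most like Acot1 over the 4 libraries were Nr4a1, Pdk4, Lgals4, Gnb3 and Kcnv2. Likeness is the root mean square difference in log2(CPM + 1) after TMM scaling and centring of each gene, and it ran from 0.293 for Nr4a1 to 0.488 for Kcnv2. Nr4a1, an immediate early nuclear receptor, stood at 60.3, 9.7, 41.4 and 14.1 CPM in WT saline, WT isoproterenol, KO saline and KO isoproterenol. Pdk4, the kinase that restrains glucose oxidation, stood at 537, 153, 765 and 87.2 CPM, with KO isoproterenol lowest, unlike Acot1. The nearest to Acot2 were Gpcpd1, Myh7b, Hrc, Adra1a and Gm34302, with differences of 0.056 to 0.080. Hrc, a calcium-binding protein of the sarcoplasmic reticulum, stood at 1093, 744, 1184 and 444 CPM, which is the same order of libraries as Acot2. With 4 libraries this is a description only.

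Other enzymes that hydrolyse acyl-CoA or related thioesters had no called gene. Of 10 such genes 5 were tested, and 0 were called in either genotype (median log2 ratio -0.21 in WT and -0.24 in KO). Of all genes 1.66% were called in WT and 11.3% in KO, so 0 of 5 is no result about these genes. Acot6, the next gene of the type I family, stood at 4.13, 3.28, 4.88 and 4.26 CPM. Them4 stood at 11.8, 14.5, 11.5 and 16.5 CPM. Them6 stood at 11.6, 9.46, 10.1 and 6.66 CPM, and was 1.73-fold lower (1.39 to 2.17) in the KO pair, beyond counting error but not called. Acot5, Them5 and Olah had 0 reads in all libraries, which allows up to 0.117 to 0.16 CPM.

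The acyl-CoA synthetases, which catalyse the opposite reaction, had 14 tested genes, of which 0 were higher and 2 lower in WT and 1 was higher and 5 lower in KO. Beside this list and those below, 0.86% of all genes were called higher and 0.797% lower in WT. In KO the shares were 7.09% and 4.22%. These lists were chosen with earlier results of these data known. Acsl1, the main long-chain synthetase of the heart, stood at 1141, 858, 1135 and 578 CPM, 1.26-fold lower (1.23 to 1.28) in WT and 2.23-fold lower (2.18 to 2.28) in KO. Acsm5, a mitochondrial medium-chain synthetase, was 2.4-fold lower (1.7 to 3.51) in WT and 6.29-fold lower (4.12 to 10.4) in KO. Slc27a6, a fatty acid transport protein, was the gene called higher in KO, at 4.61-fold (1.84 to 16.7) from 0.218 to 1.23 CPM. The carnitine shuttle, which carries acyl groups into mitochondria, had 0 of 8 genes called in WT (1 lower with total-count scaling) and 1 higher and 6 lower in KO (4 lower with total-count scaling). Cpt2, the inner-membrane transferase, was 2.39-fold lower (2.28 to 2.52) in KO, and Cpt1c, the isoform best known from brain, was 2.65-fold higher (2.07 to 3.42).

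Mitochondrial beta-oxidation, which uses acyl-CoA that thioesterases would otherwise cleave, had 1 of 16 genes called lower in WT and 14 of 16 in KO, with 0 higher in either. The KO count was 9 with total-count scaling. The median log2 ratio was -0.24 in WT and -0.94 in KO. Hadha, a subunit of the trifunctional protein, was 2.3-fold lower (2.26 to 2.34) in KO, and the auxiliary isomerase Ech1 was 1.54-fold lower (1.5 to 1.57) in WT and 2.93-fold lower (2.85 to 3.01) in KO. The difference of responses was called lower for 10 of 16 genes, or for 3 with total-count scaling. Of all genes 1.73% were called lower in it with TMM scaling. Peroxisomal beta-oxidation had 0 of 14 genes called in WT and 3 lower in KO, namely Ehhadh, Abcd3 and Pex11a. The cardiomyocyte markers lay in the same direction in KO, with a median log2 ratio of -0.59, and their part in these lists was not tested. In CoA synthesis and breakdown 0 of 11 genes were called in WT and 3 were lower in KO, namely the CoA carrier Slc25a42, Nudt7 and Pank1, the gene of a kinase that starts CoA synthesis.

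PPAR receptors and their partners were not called in either genotype (0 of 14), with a median log2 ratio of -0.02 in WT and -0.38 in KO. After TMM scaling 8 of the 14 ratios lay below 1 in WT and 14 in KO. The difference of responses was below 0 for 14 of 14, with 0 called. Ppara itself stood at 28, 27.6, 24.3 and 19 CPM, 1.04-fold higher (0.93 to 1.16) in WT and 1.45-fold lower (1.27 to 1.66) in KO. Other genes known to respond to PPARs were 0 higher and 4 lower of 10 in WT, and 1 higher and 8 lower in KO. Of all genes 0.86% were higher and 0.797% lower in WT, and 7.09% and 4.22% in KO. Pdk4 was 3.31-fold lower (3.19 to 3.45) in WT and 9.95-fold lower (9.46 to 10.5) in KO. Ucp3, a mitochondrial carrier, was 3-fold lower (2.72 to 3.32) in WT and 21.7-fold lower (18.2 to 26.4) in KO. The gene called higher in KO was Ucp2, at 2.28-fold (2.15 to 2.42). In the difference of responses 5 of these 10 genes were called lower, 1 higher and 4 not, beside 1.73% lower and 3.83% higher of all genes. Pdk4 and Ucp3 were among the 5, also with total-count scaling. Of the 4 not called, Plin5 still differed beyond counting error, by -0.66 on the log2 scale (-0.80 to -0.52). So did Cd36 (-0.49, -0.52 to -0.46) and Fabp3 (-0.38, -0.41 to -0.34). Plin2 did not (-0.11, -0.27 to 0.06). Acot1 was not called either, at 0.06 (-0.67 to 0.79), and its ratios overlapped between the genotypes. Between the saline libraries Ucp3 was 1.7-fold higher (1.6 to 1.8) in KO and Pdk4 1.47-fold higher (1.44 to 1.51). Acot1 was 1.06-fold lower (0.906 to 1.24) there.

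**Figure D5:**
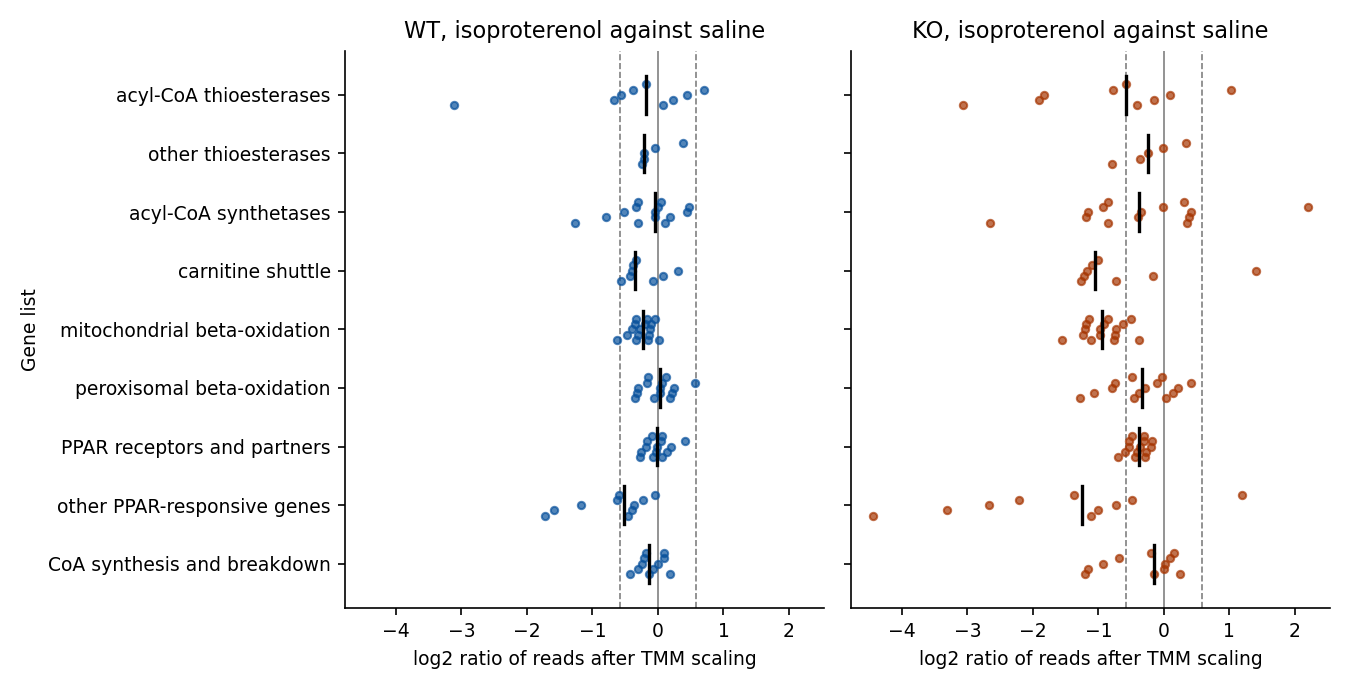
Log2 ratio of reads, isoproterenol against saline, for each tested gene of the thioesterase set and of related gene lists, in WT (left) and KO (right), after TMM scaling. Mitochondrial beta-oxidation genes have a median of -0.24 in WT and -0.94 in KO, and the thioesterases -0.18 and -0.58.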

How the data were processed

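The authors deposited 1 table of CPM for 46603 Ensembl mouse genes. HTSeq and the build GRCm38.p4 (mm10) are named per the submitters' processing notes. The aligner, the annotation release and how HTSeq was set were not given in the sources used here. Libraries were TruSeq Stranded mRNA, per the labels' protocols. Columns headed by genotype alone were taken as saline. All values of the deposited CPM were whole multiples of 1 read within 0.01 reads, so 100% returned to whole reads, and 0 columns were left unused. Ratios used TMM factors (edgeR 4.0.16), 0.5 added to each count and exact conditional (Clopper-Pearson) 95% intervals, for 14301 genes that averaged 10 or more reads. The difference of responses has a normal counting interval. The additive fit used limma 3.58.1 with trend on log2(CPM + 1) and Benjamini-Hochberg adjustment at 0.05. Scripts were tested on simulated data. Total-count and DESeq2 1.42.0 scaling, a fold limit of 2, 2 reads added, no filter, a pseudocount of 0.25, edgeR and transcript length were tried. Reads carry no molecular identifiers, so they are not independent molecules and intervals and floors cover counting error only. Positions and lengths came from GENCODE M21, matched by Ensembl ID for 46005 genes, and promoter windows from RefSeq for 9 of 10 members. The members and gene lists were chosen with earlier results of these data known. Named are all members, P2ry6, called and most abundant list genes as examples, and the 5 nearest genes to Acot1 and Acot2. Scd4, Them4, Them6, Acot5, Acot6, Acot10, Them5, Olah and Plin2 were named also for their values. The values of 1 list gene are not reported here.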

Additional observations from a re-analysis of the deposited data

How the results depend on the processing

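No paired analysis was possible because each group holds 1 library. DESeq2 size factors changed no call of a member. The setting with 2 added reads changed none either. It enters the ratio of a pair but not its interval, so it could change calls only in the difference of responses. With total-count scaling, members kept their calls, but over all genes the KO pair had 357 lower, the isoproterenol pair of genotypes 1044 higher and 112 lower, and the difference of responses 1062 higher and 85 lower. Its share of higher calls was 40.6% in WT (51.9% with TMM), 80.2% in KO (62.7%), 90.3% for KO against WT in isoproterenol (69.9%) and 92.6% in the difference (68.8%). With a fold limit of 2, all-gene counts were 49 higher and 35 lower in WT, 515 and 186 in KO, 16 and 15 between saline libraries, 222 and 61 between isoproterenol libraries and 218 and 47 in the difference. At that limit the KO calls of Acot9 (0 members higher) and Acot3 and the isoproterenol call of Acot2 (0 members lower) were lost. With the cardiomyocyte scaling, chosen after seeing the data, 1 member was higher in WT, 1 higher and 0 lower between isoproterenol libraries, and 0 lower in the difference. The additive treatment fit called 242 genes higher and 126 lower on CPM as deposited, 15 and 7 with edgeR, 174 and 145 with no filter, and 12 and 6 with a pseudocount of 0.25. It called 3, 1, 3 and 1 members in that order. By genotype the counts were 6 and 8, 2 and 1, 4 and 6, and 2 and 1, with 0 members. Leaving out 1 library leaves no residual degrees of freedom, so it gives values and no calls. The treatment difference then ran from -2.54 to -2.48 for Acot1, from -1.78 to -0.56 for Acot2 and from 0.69 to 0.99 for Acot9, where the value without a WT library is that of the KO pair and the reverse. By longest transcript in place of merged exons, Acot13 took 75.2% of the summed level in WT saline, 73.3% in WT isoproterenol, 73% in KO saline and 73.8% in KO isoproterenol. Depth limits Acot3, Acot4 and Acot12 most, and the spread between hearts was not measured.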
